A study of Mus musculus with 24 samples.

Results

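Females and males were compared in the inguinal white adipose pad of mice at postnatal day 28 (p28) after delayed weaning (DW), in which the young stayed with the mother instead of being separated at day 21. The comparison used 8 of the 24 libraries of the study, 1 per animal: females 76, 77, 82 and 83 and males 79, 80, 86 and 87. The other 16 libraries were females and males at day 21 (p21) and at p28 after standard weaning (SW, separated at day 21), with 4 animals in each of the 4 groups. The titles of the p21 libraries read p28 SW, but their descriptions and column names give day 21, which was followed here. Those descriptions and column names also mark the p21 libraries SW. No genotype, strain or agent is named in the labels for any group. Poly(A) RNA of the tissue in bulk was sequenced, and the list of adipocyte genes summed to 34486 to 45649.5 in deposited value across the 8 libraries. A difference was kept when the gene lay on a chromosome other than X and Y (the mitochondrial genes included), passed the test across all genes, and was seen in both runs of animal numbers: 76, 77, 79 and 80, and 82, 83, 86 and 87. "Seen in both" means that within each run both females lay above both males, or both males above both females. What separates the number runs is not given in the labels. That rule left 366 genes, 281 higher in females and 85 higher in males, of 15459 tested.

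The inguinal pad is the main subcutaneous depot of the mouse. In females it also houses the fourth mammary gland, a branching tree of milk-producing luminal cells and contractile basal cells that grows through the fat under estrogen, progesterone, prolactin and growth hormone. In most male mice the mammary rudiment is small. The fat cells store triglyceride under a coat of perilipins and release it through a chain of lipases. In bulk RNA, fewer cells of a type and less RNA per cell cannot be told apart.

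The 8 DW libraries held 84973443 to 131905209 recovered reads in the listed genes, and no library of a female held a read of a Y-linked gene. Values below are the deposited ones (reads divided by one factor per library), always in the order of females 76, 77, 82, 83 and males 79, 80, 86, 87. Differences are female minus male on the log2(value + 1) scale, with n = 4 animals per sex and the Benjamini-Hochberg adjusted p of limma. This scale understates changes of low genes.

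Females 82 and 83 stood apart from the other 6 libraries before any sex comparison. Their log values correlated with those of females 76 and 77 at 0.957 to 0.975. Between females 82 and 83 themselves the correlation was 0.985, and between females 76 and 77 it was 0.996. Mitochondrial genes took 13.2% and 13.7% of the reads in females 82 and 83, against 17.7% to 23.6% in the other 6. In one fit with the DW groups split by run, 5065 genes (32.8%) differed between the females of the second and the first run, 2284 higher and 2781 lower in the second. Between the males of the same runs 0 genes (0%) passed limma's test, with 477 at an unadjusted p under 0.05. The sex difference itself changed between runs in 1543 genes (9.98%). The shift between the females ran with base composition: over 15382 genes, Spearman's rho with transcript GC content was -0.56 in females and -0.44 in males, a description across genes that share libraries. Genes of under 45% GC were higher in females 82 and 83 by a median of 0.32 and those of at least 55% GC lower by a median of -0.43. The corresponding medians between the male runs were 0.09 and -0.11. With each library corrected for transcript GC content and length, 371 genes were called higher in females and 159 higher in males at DW, and 243 and 15 without females 82 and 83. Counts without these females are given for the whole comparison, and beside genes and list medians where leaving them out ended a call or moved the value by over 1.5 times. Not every such case is marked.

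At p28 DW 292 genes (1.89%) were called higher in females and 87 (0.563%) higher in males. Both females lay above both males in each run in 1267 genes (8.2%), and both males above both females in 1474 (9.53%). Genes that met both conditions numbered 281 (1.82%) and 85 (0.55%). The female set had a median difference of 0.93 with a largest of 4.84, and 122 of its genes differed by at least 1. The male set had a median of -0.63, and 4 of its genes differed by at least 1. Without females 82 and 83 there were 273 genes called higher in females and 8 higher in males. Of the 281 genes 211 were still called then, and of the 85 only Serpina3k and Nrip1 were. A further 13 called genes were not seen in both runs, 11 higher in females, such as Krt5 and Tfap2a, and 2 higher in males, Chst15 and Lonp2, named after their values were seen. Among the 11 was Lars2, a mitochondrial leucyl-tRNA synthetase gene, also named after its values were seen. It was at 169, 4237, 2241 and 1712 in the females and 195, 286, 277 and 329 in the males. For Lars2 3 females were high and female 76 was below all males. Leaving out a single animal moved the 281 most for female 76 (646) and female 77 (580), and to between 221 and 252 for the other 6. The 85 became 570 without female 76, 491 without 77, 11 without 82, 21 without 83, 42 without male 79, 35 without 80, 31 without 86 and 19 without 87.

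**Figure D1:**
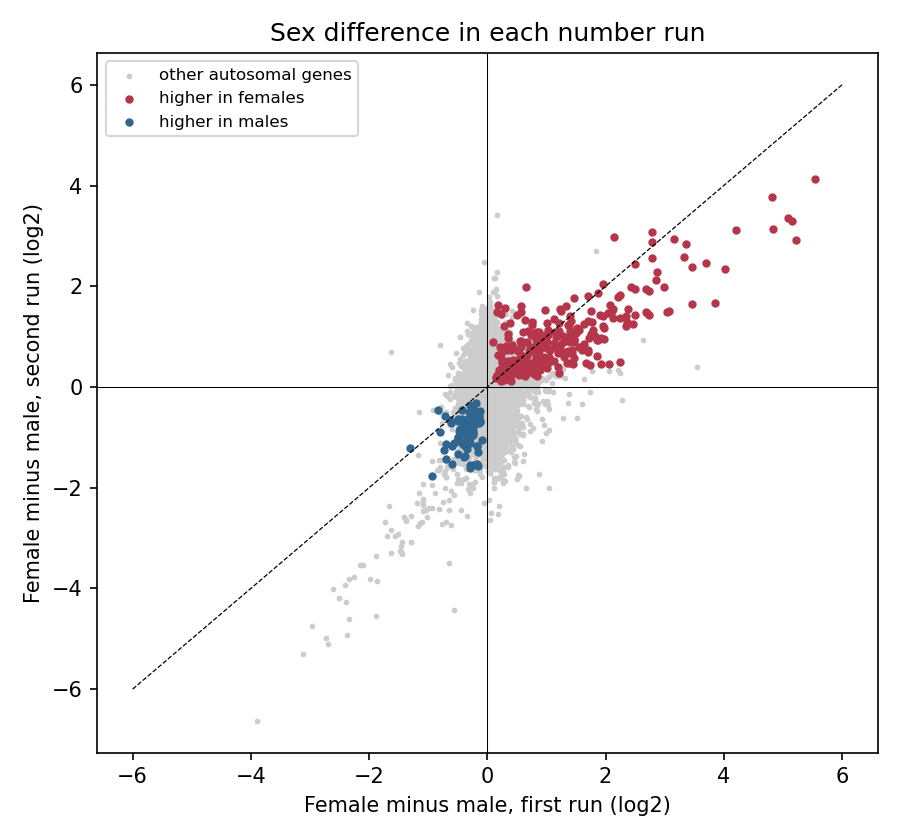
Female minus male difference on the log2(value + 1) scale in the first number run (x axis) and in the second (y axis), 1 point per gene, with the dashed line marking equal differences. The 281 genes higher in females spread along the line with medians of 0.95 and 0.81, while the 85 genes higher in males lie below it, with medians of -0.32 and -0.88.

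Within the first run 227 genes were called higher in females and 1 higher in males, and within the second 1921 and 2164. The female set had 185 of its 281 genes called in the first run alone and 217 in the second alone. The male set had 1 of its 85 called in the first run and 83 in the second. Of the 85 genes 82 showed the larger difference in the second run, against 84 of the 281 and 75.5% of all genes tested. Of the 281 genes female 82 or 83 was the lowest female in 199, and of the 85 in 80. The same share over all genes tested was not computed, so these counts have no background. Over all 15459 genes 2781 were called lower and 2284 higher in the second-run females.

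Of the 281 genes 51 were on at least 1 of the 26 gene lists used, and 43 of these on the epithelial, milk or hormone lists. Those lists held 31 luminal, 9 milk, 24 basal, 27 polarity and adhesion and 26 hormone genes, of 15459 tested. The largest female excess fell on luminal epithelial genes. Of 31 luminal markers tested, 24 were called higher in females, all 24 seen in both runs, and 0 were called higher in males. Of these 31, all lay higher in females by sign. The list's median difference was 1.62, beside -0.01 over all genes tested, and its summed value was 244.5 to 479.9 in the females and 90.7 to 112 in the males. With females 82 and 83 left out, 25 of the 31 were called and the median was 1.75. Females 82 and 83 held the lower sums.

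The simple-epithelium keratins Krt8, Krt18 and Krt19, which build the filaments of luminal cells, were near 0 in most males. Krt18 (chromosome 15) was at 42, 31.5, 16 and 16.7 in the females and 0.0282, 0.0675, 1.6 and 0.194 in the males. Its difference was 4.23 ± 0.55 (SE, adjusted p = 3.13e-05). Krt8 (chromosome 15) was at 41.1, 34.1, 11.5 and 12 in the females and 0.0282, 0.03, 1.87 and 0 in the males, with a difference of 4.07 ± 0.58 (SE, adjusted p = 0.000104). For Krt19 (chromosome 11) the values were 53.5, 46.4, 19.5 and 20.1 in the females and 0.515, 0.48, 2.56 and 0.159 in the males. The groups did not overlap in any of these 3 genes, which the rule of both runs nearly fixes in advance. No overlap was found in 277 of the 281 genes, in 82 of the 85 and in 1669 of all 15459 tested. For Krt8, Krt18 and Krt19 male 86 was the highest male, and females 82 and 83 were the lowest females. Krt19 differed by 4.22 ± 0.52 (SE, adjusted p = 1.82e-05). Krt7, a further luminal keratin, differed by 2.56 ± 0.34 (SE, adjusted p = 3.65e-05). Krt8 and Krt18 have related sequences elsewhere in the genome, so how the counting treated shared reads could affect their level.

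Genes that join epithelial cells followed the keratins. Epcam (chromosome 17), a cell adhesion protein of epithelia, was at 23.7, 20.9, 10.8 and 12.3 in the females and 0.959, 0.638, 1.73 and 0.892 in the males. That gave a difference of 3.08 ± 0.41 (SE, adjusted p = 3.65e-05). Cdh1, which encodes E-cadherin, was at 27.4, 25.1, 11.9 and 15.9 in the females and 2.2, 2.28, 3.96 and 4.39 in the males. Its males were not at 0, and its difference was 2.29 ± 0.39 (SE, adjusted p = 0.000923), with 3.07 in the first run and 1.51 in the second. Tmprss2 (chromosome 16), a membrane serine protease of epithelia, reached 27.6, 28.8, 16 and 20.7 in the females and 0.0846, 0, 0.963 and 0.0177 in the males, and differed by 4.29 ± 0.44 (SE, adjusted p = 2.17e-06). On the list of polarity and adhesion genes, 7 of 27 were called higher in females and 0 higher in males, with a median of 0.26. That median was 0.64 in the first run and 0.05 in the second, and without females 82 and 83 it was 0.62 with 6 genes called. Ocln and Cgn, which encode proteins of the tight junction, were among the 7.

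Transcription factors of the luminal lineage were higher in females as well. Foxa1 (chromosome 12), a pioneer factor that opens chromatin for the estrogen receptor, was at 29.3, 26.2, 10.1 and 13.5 in the females and 0, 0.015, 1.09 and 0 in the males. It differed by 3.98 ± 0.54 (SE, adjusted p = 4.25e-05). Tfap2b (chromosome 1), an AP-2 factor, was at 17.3, 17.3, 7.2 and 13.1 in the females and 0.0846, 0.18, 0.802 and 1.49 in the males, with a difference of 3.18 ± 0.42 (SE, adjusted p = 3.65e-05). Elf5, which directs the alveolar secretory fate, was at 3.14, 3.65, 1.8 and 2.48 in the females and 0, 0.0075, 0.189 and 0.239 in the males. Its difference was 1.75 ± 0.22 (SE, adjusted p = 2.12e-05). Gata3, which maintains luminal identity, was at 25.6, 24.6, 9.4 and 10.8 in the females and 5.17, 5.27, 7.88 and 6.3 in the males. Gata3 differed by 1.26 ± 0.25 (SE, adjusted p = 0.00431), and its difference shrank from 2.07 in the first run to 0.46 in the second, where the females of the second run lay just above their males.

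Csn3 (chromosome 5) showed the largest difference of all genes seen in both runs. It encodes kappa-casein, which coats the milk casein micelle. Its values were 44.9, 49.6, 34.9 and 32.5 in the females and 0.0423, 0.015, 2.94 and 0 in the males, a difference of 4.84 ± 0.72 (SE, adjusted p = 0.000167). Male 86 was the one male above 0.0423. Ltf (chromosome 9), which encodes the iron-binding milk protein lactoferrin, was at 8.28, 14.8, 9.13 and 10.0 in the females and 0.155, 0.21, 0.991 and 0.0884 in the males and differed by 3.10 ± 0.39 (SE, adjusted p = 1.94e-05). Btn1a1, which encodes butyrophilin of the milk fat globule membrane, was at 0.958, 1.02, 0.98 and 1.07 in the females and 0, 0, 0.0378 and 0 in the males. All 4 females lay near 1, and the difference was 0.99 ± 0.21 (SE, adjusted p = 0.00884). It was no longer called without females 82 and 83, at 0.98 (adjusted p = 0.084). Of 9 milk protein genes tested, 4 were called higher in females (Csn3, Ltf, Btn1a1 and Muc15) and 0 higher in males, with a median of 0.39. Without these females 3 of the 9 were called and the median was 0.26. Csn2 and Lalba, which mark lactating cells, were not called.

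**Figure D2:**
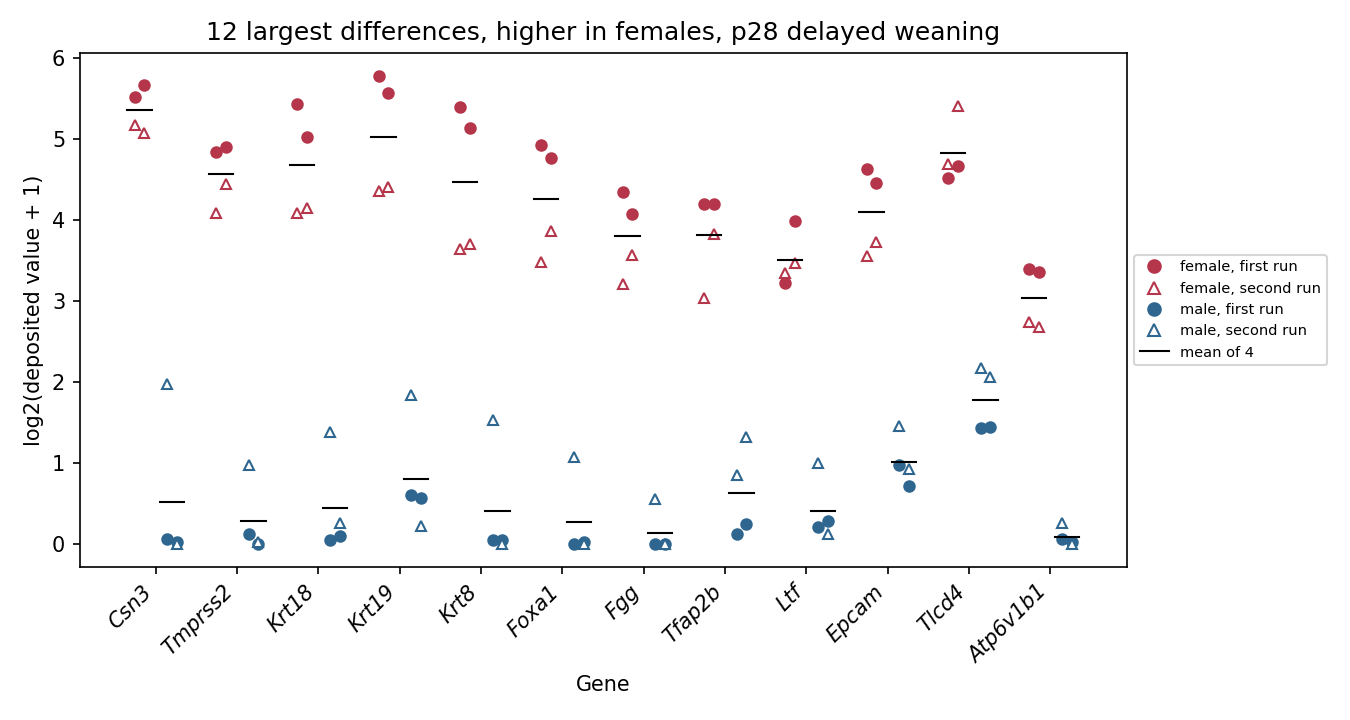
Log2(deposited value + 1) of the 12 genes with the largest female excess, 1 point per animal, with females in red and males in blue, circles for the first number run, open triangles for the second and a bar for the mean of 4 animals. All 4 females lie above all 4 males for each gene, which the choice of genes nearly fixes. Male 86 is the highest male for Csn3, Krt18, Krt19 and Krt8, and females 82 and 83 lie below 76 and 77 for the keratins.

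Of the 12 largest differences, the genes outside the lists included Atp6v1b1 and Tlcd4. Atp6v1b1 (chromosome 6), a subunit of the proton pump, was at 9.52, 9.2, 5.64 and 5.37 in the females and 0.0423, 0.015, 0.189 and 0 in the males and differed by 2.95 ± 0.39 (SE, adjusted p = 3.23e-05). Slc5a5 and Slc12a2 were named after their values were seen. Slc5a5, which encodes the sodium iodide symporter that loads milk with iodide, was at 7.57, 7.14, 4.75 and 3.86 in the females and 0.155, 0.165, 0.227 and 0.212 in the males. It differed by 2.48 ± 0.21 (SE, adjusted p = 7.27e-08). Slc12a2, a sodium, potassium and chloride cotransporter of duct cells, was at 82.3, 91.4, 102 and 123 in the females and 35.4, 32.2, 35.2 and 37.4 in the males. Females 82 and 83 were its highest animals, unlike in the keratins, and it differed by 1.47 ± 0.16 (SE, adjusted p = 3.72e-06). Tlcd4 (chromosome 3) was at 21.9, 24.4, 24.8 and 41.3 in the females and 1.68, 1.71, 3.48 and 3.15 in the males, with a difference of 3.05 ± 0.33 (SE, adjusted p = 3.4e-06).

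The fibrinogen genes Fgg and Fgb, whose products form the clotting protein with that of Fga, were read in female pads and were near 0 in males. Fgg (chromosome 3) was at 19.3, 15.8, 8.19 and 10.8 in the females and 0, 0, 0.462 and 0 in the males and differed by 3.66 ± 0.40 (SE, adjusted p = 3.41e-06). Fgb was named after its values were seen. It was at 12.3, 8.15, 3.9 and 5.4 in the females and 0, 0, 0.151 and 0 in the males. The difference of Fgb was 2.92 ± 0.29 (SE, adjusted p = 1.61e-06). Only male 86 held a read of either. Lcn2, a lipocalin of epithelia and of the acute phase, was at 11.6, 9.81, 6.59 and 5.17 in the females and 1.39, 2.03, 1.78 and 1.09 in the males, with a difference of 1.81 ± 0.26 (SE, adjusted p = 0.00012). Of 36 complement and acute phase genes, 2 were called higher in females (Lcn2 and Hc) and 1 higher in males (Serpina3k), with a median of -0.10, or -0.03 without females 82 and 83.

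Receptors and signals of the ovarian and pituitary hormones split. Of 26 genes tested on the list of steroid and prolactin receptors and targets, 6 were called higher in females and 0 higher in males, with a median of 0.17. Pgr, the progesterone receptor gene, was at 5.49, 7.15, 4.02 and 8.05 in the females and 0.0141, 0.105, 0.321 and 0 in the males and differed by 2.67 ± 0.28 (SE, adjusted p = 2.54e-06). Prlr, the prolactin receptor gene, was at 51.6, 53.8, 50.4 and 66.8 in the females and 15.8, 15.3, 14.2 and 17.6 in the males. Its males were well above 0, its runs gave 1.70 and 1.81, and its difference was 1.75 ± 0.27 (SE, adjusted p = 0.000203). Esr1, the estrogen receptor alpha gene, was at 58, 56.8, 82.4 and 77.7 in the females and 46.3, 33.5, 52.1 and 49.3 in the males, a difference of 0.59 ± 0.23 (SE, adjusted p = 0.162) that missed the threshold although the groups did not overlap.

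The paracrine signals of the duct were among the 6. Areg encodes amphiregulin, which relays the estrogen signal for duct elongation, and was at 3.99, 5.43, 2.79 and 3.63 in the females and 0, 0, 0.142 and 0.0442 in the males. Areg differed by 2.22 ± 0.36 (SE, adjusted p = 0.000436). Wnt4, which relays the progesterone signal, was at 4.4, 4.14, 1.83 and 2.2 in the females and 0.169, 0.0675, 0.972 and 1.3 in the males. It differed by 1.37 ± 0.27 (SE, adjusted p = 0.0043), with 2.24 in the first run and 0.50 in the second. Fgfr2, a receptor for fibroblast growth factors, differed by 0.63 ± 0.14 (SE, adjusted p = 0.00982). Stc2, which encodes stanniocalcin, an inhibitor of the protease that frees IGF1, was at 44, 46.2, 20.4 and 25.6 in the females and 13.6, 8.46, 10.1 and 9.09 in the males and differed by 1.57 ± 0.28 (SE, adjusted p = 0.00157). It was the only one of 23 growth hormone and IGF genes called, and 2 were called without females 82 and 83.

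Of 24 basal and myoepithelial markers, 3 were called higher in females (Krt5, Krt14 and Col17a1) and 0 higher in males, with a median of 0.12. The median was 0.50 in the first run and -0.07 in the second, and 0.39 without females 82 and 83, where 3 were called. Krt14, a keratin of basal cells, was at 2.1, 3.36, 1.48 and 1 in the females and 0, 0, 0.0283 and 0.309 in the males and differed by 1.41 ± 0.28 (SE, adjusted p = 0.00411). Krt5, its partner, was at 4.51, 5.96, 2.44 and 2.97 in the females and 0, 0, 0.0566 and 2.52 in the males. Male 87 lay above female 82, so Krt5 was called at 1.78 ± 0.42 (SE, adjusted p = 0.0201) but not seen in both runs. Trp63, the basal master regulator, was at 11.7, 12.9, 5.8 and 8.69 in the females and 7.83, 5.54, 5.92 and 9.82 in the males, a difference of 0.36 ± 0.38 (SE, adjusted p = 0.633). Acta2, the smooth muscle actin gene that vessels share with myoepithelium, differed by -0.04 ± 0.17 (SE, adjusted p = 0.913).

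**Figure D3:**
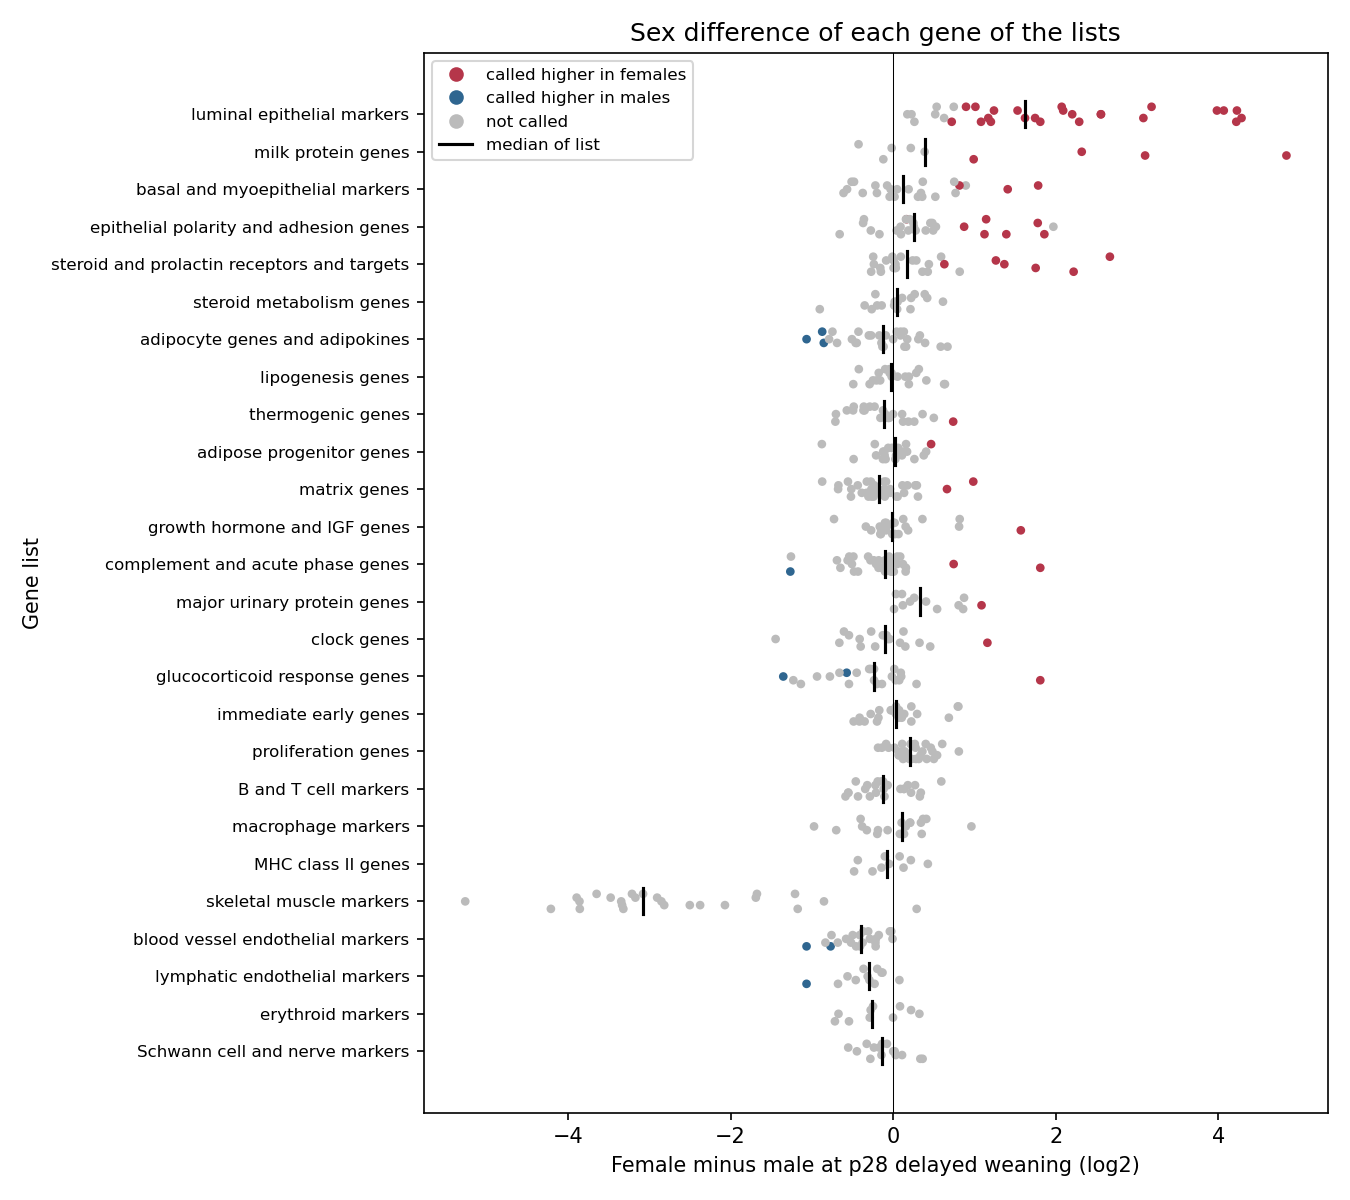
Female minus male difference (log2 of value + 1, x axis) of every tested gene of 26 lists (rows), coloured by call, with a bar at the list's median. The luminal list stands at a median of 1.62 with 24 of 31 genes called, the skeletal muscle list at -3.08 with 0 called, and most other lists near 0.

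Promoter windows of Epcam, Fam107a and Sgk1 are shown as the named genes in which a search for hormone-related motifs found the glucocorticoid one; they were picked after the search. Each is the 250 bases before the annotated start, 5′ to 3′ along the gene's strand, from RefSeq on GRCm38.p6, with motif letters in capitals. The motifs were the STAT motif TTCNNNGAA, the glucocorticoid response element (GNACA, any 3 bases, TGTNC) and the estrogen response element (GGTCA, any 3 bases, TGACC), on both strands and with no overlap in the windows shown.
Epcam, chr17:87635729-87635978, plus strand: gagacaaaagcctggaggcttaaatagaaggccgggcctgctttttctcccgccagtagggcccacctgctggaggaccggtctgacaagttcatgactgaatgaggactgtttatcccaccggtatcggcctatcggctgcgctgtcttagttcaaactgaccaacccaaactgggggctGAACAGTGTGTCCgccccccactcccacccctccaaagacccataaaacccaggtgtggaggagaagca
Fam107a, chr14:8309778-8310027, minus strand: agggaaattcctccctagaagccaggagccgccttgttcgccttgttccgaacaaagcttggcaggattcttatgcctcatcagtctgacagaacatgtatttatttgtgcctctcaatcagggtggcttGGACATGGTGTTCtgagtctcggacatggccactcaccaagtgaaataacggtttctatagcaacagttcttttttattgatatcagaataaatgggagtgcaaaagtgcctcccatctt
Sgk1, chr10:21993640-21993889, plus strand: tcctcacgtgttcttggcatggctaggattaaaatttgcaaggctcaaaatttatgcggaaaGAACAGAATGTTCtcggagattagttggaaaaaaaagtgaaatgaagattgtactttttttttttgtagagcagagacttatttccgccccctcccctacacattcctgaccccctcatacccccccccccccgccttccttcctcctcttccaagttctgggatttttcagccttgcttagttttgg
Epcam was higher in females and the other two in males. Sgk1 has further annotated starts without these letters or with the STAT motif, and Fam107a has a further start without any of the motifs. Other named genes, Col28a1, Esr1, Fgb, Gpr4, Prlr and Snrpg, held the STAT motif in a window. Among 32536 distinct windows of this length, 7.04% held the STAT motif, 0.39% the glucocorticoid motif and 0.0645% the estrogen motif. Windows were matched for 203 of the 281 genes higher in females, of which 17 held the STAT motif, 1 the glucocorticoid motif and 0 the estrogen motif in at least 1 window. By window, the unit of the shares above, the STAT motif was in 7.38% of 244 and the glucocorticoid motif in 0.41%. The 85 genes higher in males had windows for 66, of which 7 held the STAT motif, 2 the glucocorticoid motif and 0 the estrogen motif. By window these were 7.0% and 3.0% of 100, the latter 3 windows of 2 genes. Fam107a gave 2 of the 3, which overlap and hold the same stretch. A match is a stretch of letters and says nothing on whether a factor binds there.

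In other genes of the female set females 82 and 83 were the highest animals. Rps27a, Snrpg and Psmb4 were chosen as examples after their values were seen. Rps27a, which encodes a ribosomal protein fused to ubiquitin, was at 182, 154, 390.2 and 334 in the females and 135, 137, 137 and 108 in the males. Its difference was 0.30 in the first run and 1.56 in the second. Snrpg, a core protein of spliceosomal particles, was at 23.5, 20.1, 53.1 and 41.4 in the females and 19.7, 18.2, 14.6 and 14.6 in the males. Psmb4, a proteasome subunit, was at 25.6, 23.7, 67.2 and 53.1 in the females and 20.9, 22.7, 21.2 and 20.1 in the males. The 3 differences without females 82 and 83 were 0.38 (adjusted p = 0.579) for Rps27a, 0.36 (adjusted p = 0.404) for Snrpg and 0.20 (adjusted p = 0.699) for Psmb4. Lum, which encodes the collagen-binding proteoglycan lumican, was at 125, 145, 227 and 264 in the females and 100.3, 74.3, 101 and 92 in the males. It differed by 0.99 ± 0.24 (SE, adjusted p = 0.0284), and by 0.56 (adjusted p = 0.505) without these females.

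The male set held genes of fat cell lipid handling. Plin4 (chromosome 17), which encodes a perilipin of small lipid droplets, was at 1228, 1456, 667 and 717 in the females and 2079, 2288, 1603 and 2151 in the males. All 4 males lay above all 4 females, which the rule nearly fixes. The females of the second run were the lowest animals, and the difference was -1.06 ± 0.21 (SE, adjusted p = 0.00346). Lipe, which encodes hormone-sensitive lipase, was at 773, 817, 484 and 357 in the females and 909.9, 1179, 1083 and 1059.7 in the males. Lipe differed by -0.87 ± 0.23 (SE, adjusted p = 0.0437). Pck1 encodes an enzyme on the route from small precursors to the glycerol phosphate of triglyceride. Pck1 was at 1059.7, 866, 994 and 1221 in the females and 1329, 2105, 2072 and 2046 in the males. Its run differences were alike at -0.80 and -0.90, and together they gave -0.85 ± 0.22 (SE, adjusted p = 0.0386). These 3 were the called genes of 30 on the list of adipocyte genes and adipokines, whose median was -0.12. By sign 13 of the 30 lay higher in females.

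Further enzymes and carriers of the same pathways were higher in males, named after their values were seen or from the sex by age comparison below. Acsl1, which activates fatty acids with coenzyme A, was at 1656, 1683, 1473 and 1493 in the females and 2008, 2559, 2650.1 and 2666 in the males and differed by -0.64 ± 0.15 (SE, adjusted p = 0.0162). Aqp7, the glycerol channel of fat cells, was at 261, 259, 228 and 249.7 in the females and 324, 371, 443 and 413 in the males, a difference of -0.63 ± 0.16 (SE, adjusted p = 0.0341). Cpt1a, which passes fatty acids to the mitochondrion, differed by -0.43 ± 0.11 (SE, adjusted p = 0.0285). Lpin1 (chromosome 12), a phosphatidate phosphatase, was at 273, 286, 239.9 and 201 in the females and 324, 422, 506 and 475 in the males, and differed by -0.78 ± 0.14 (SE, adjusted p = 0.00214). Gpat4 (chromosome 8), which starts glycerolipid assembly, was at 128, 125, 120.1 and 110.0 in the females and 150.4, 171, 179.7 and 187 in the males and differed by -0.50 ± 0.11 (SE, adjusted p = 0.00891).

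Leaving out females 82 and 83 ended the call of each of these 8 genes. The differences were then -0.59 (adjusted p = 0.16) for Plin4, -0.41 (adjusted p = 0.604) for Lipe and -0.95 (adjusted p = 0.101) for Pck1. They were -0.56 (adjusted p = 0.169) for Acsl1, -0.56 (adjusted p = 0.266) for Aqp7 and -0.61 (adjusted p = 0.0719) for Lpin1. Cpt1a stood at -0.34 (adjusted p = 0.304) and Gpat4 at -0.43 (adjusted p = 0.127). 

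Other fat cell genes were not called. Adipoq, which encodes adiponectin, was at 1491, 1291, 1192 and 1186 in the females and 1527, 1484, 1355 and 1276 in the males, a difference of -0.13 ± 0.14 (SE, adjusted p = 0.622). Plin1, the main perilipin of the large droplet, was at 1083, 1073, 1031 and 1011 in the females and 1318, 1351, 1194 and 1205 in the males, with -0.27 ± 0.12 (SE, adjusted p = 0.23). Pparg, the master regulator of fat cells, gave 0.16 ± 0.16 (SE, adjusted p = 0.601). Lep, the leptin gene, gave 0.39 ± 0.34 (SE, adjusted p = 0.534) and its sign differed between runs, -0.26 and 1.05. Of 21 lipogenesis genes 0 were called by limma, with a median of -0.02, or 0.00 without females 82 and 83, and Fasn gave -0.42 ± 0.31 (SE, adjusted p = 0.467) and Scd1 -0.16 ± 0.41 (SE, adjusted p = 0.863). Of 24 thermogenic genes, 1 was called higher in females (Ckmt1), with a median of -0.11, or -0.17 without females 82 and 83, and Ucp1 gave 0.50 ± 0.57 (SE, adjusted p = 0.656).

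Serpina3k (chromosome 12), a serine protease inhibitor of a multigene family whose members share reads, was at 0.573, 0.499, 0.308 and 0.434 in the females and 3.62, 2.16, 1.94 and 2.43 in the males. It differed by -1.26 ± 0.20 (SE, adjusted p = 0.000263), with -1.31 and -1.21 in the runs. It stayed at -1.18 (adjusted p = 0.00908) without females 82 and 83. It was the only gene of the male set called without the females of either run and by each of 4 other tests run (edgeR, DESeq2, limma on TMM-scaled reads and limma with no variance trend). Fam107a (chromosome 14), a glucocorticoid-induced actin-binding protein, was at 5.41, 3.97, 2.06 and 3.15 in the females and 11, 8.72, 12.5 and 9.88 in the males. Its difference was -1.35 ± 0.27 (SE, adjusted p = 0.00524), and -1.02 (adjusted p = 0.165) without females 82 and 83. Sgk1, a kinase induced by glucocorticoids, was at 62.3, 74.6, 58.8 and 64.8 in the females and 115, 82.2, 105 and 88.9 in the males. It differed by -0.57 ± 0.15 (SE, adjusted p = 0.0349), and by -0.50 (adjusted p = 0.292) without females 82 and 83. Fkbp5, a further such target, was at 44.7, 50.8, 23.5 and 29.9 in the females and 75, 96.4, 74.5 and 73.5 in the males, a difference of -1.13 ± 0.35 (SE, adjusted p = 0.0933) that missed the threshold. Of 23 glucocorticoid response genes, 2 were called higher in males (Fam107a and Sgk1) and 1 higher in females (Lcn2), with a median of -0.23. That median was -0.13 without females 82 and 83, with 0 called higher in males by limma. Nrip1, a corepressor of nuclear receptors in fat and a target of estrogen, was at 81.2, 81.9, 88.7 and 131 in the females and 128, 169, 135 and 161 in the males. It was named after its values were seen, differed by -0.64 ± 0.17 (SE, adjusted p = 0.0483), and was at -0.84 (adjusted p = 0.0169) without females 82 and 83. Over the 27 alternative settings Nrip1 was called in 9.

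Endothelial genes leaned to the males. Of 22 blood vessel markers 0 lay higher in females and 2 were called higher in males, Car4 and Gpr182, with a median of -0.39. The summed value of the list was 1826 to 2840 in the females and 3079 to 3421 in the males, without overlap, and its median was -0.23 in the first run and -0.48 in the second. Gpr182 (chromosome 10), an atypical chemokine receptor of sinusoidal and lymphatic endothelium, was at 21.3, 21.8, 9.68 and 11.2 in the females and 30.5, 36.2, 34.1 and 29.8 in the males. It differed by -1.06 ± 0.23 (SE, adjusted p = 0.00855). Car4, a carbonic anhydrase on the capillary surface, was at 58.5, 59.1, 39.8 and 33 in the females and 81.1, 80.6, 83.3 and 73.1 in the males, and differed by -0.77 ± 0.21 (SE, adjusted p = 0.0482). Cd300lg, a receptor of capillary endothelium outside the list, was named after its values were seen. It was at 168, 162, 107 and 97.5 in the females and 218, 213, 237 and 209 in the males. It differed by -0.75 ± 0.16 (SE, adjusted p = 0.0107), and by -0.41 (adjusted p = 0.357) without females 82 and 83. Pecam1, the pan-endothelial adhesion molecule, was at 374, 390.4, 327 and 315 in the females and 494, 481, 433 and 453 in the males, a difference of -0.41 ± 0.12 (SE, adjusted p = 0.0721) that was not called. With females 82 and 83 left out the median was -0.17 and 0 of the 22 were called by limma, with 2 at an unadjusted p under 0.05.

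The remaining genes of the 12 largest in males followed the same run pattern. Prkg2, a cyclic GMP dependent kinase, differed by -0.99 ± 0.25 (SE, adjusted p = 0.0367). Col28a1, a collagen found around nerves, was at 36.3, 40.6, 14.6 and 20.7 in the females and 54.7, 40.9, 51.5 and 59.6 in the males. Its males and first-run females nearly met, and it gave -0.30 and -1.61 in the runs. Gpr4, a proton-sensing receptor, was at 32.9, 28.9, 12.2 and 11.3 in the females and 38.4, 35.1, 37.7 and 35.3 in the males, and Piezo1, a mechanically gated channel, at 118, 125, 66.3 and 47.7 in the females and 145, 175, 148 and 149 in the males. Acr, the gene of the sperm protease acrosin, was at 0.958, 1.45, 0.474 and 0.425 in the females and 2.16, 2.99, 2.39 and 2.01 in the males. Lhx6, a LIM homeobox factor, was at 18.3, 16.6, 9 and 7.82 in the females and 24.3, 26, 21.8 and 23.4 in the males, Sema4g, a semaphorin, at 5.96, 5.71, 2.76 and 2.25 in the females and 6.97, 7.73, 8.42 and 9.97 in the males, and Tead4, a partner of YAP, at 9.9, 7.8, 5.34 and 5.33 in the females and 13.5, 14.3, 11.6 and 15.3 in the males. In each of these genes females 82 and 83 were the lowest animals, and leaving them out ended the call. The differences were then -0.65 (adjusted p = 0.488) for Prkg2, -0.41 (adjusted p = 0.601) for Col28a1 and -0.24 (adjusted p = 0.663) for Gpr4. They were -0.34 (adjusted p = 0.448) for Piezo1, -0.62 (adjusted p = 0.447) for Acr and -0.43 (adjusted p = 0.566) for Lhx6. Sema4g stood at -0.43 (adjusted p = 0.597) and Tead4 at -0.58 (adjusted p = 0.392).

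**Figure D4:**
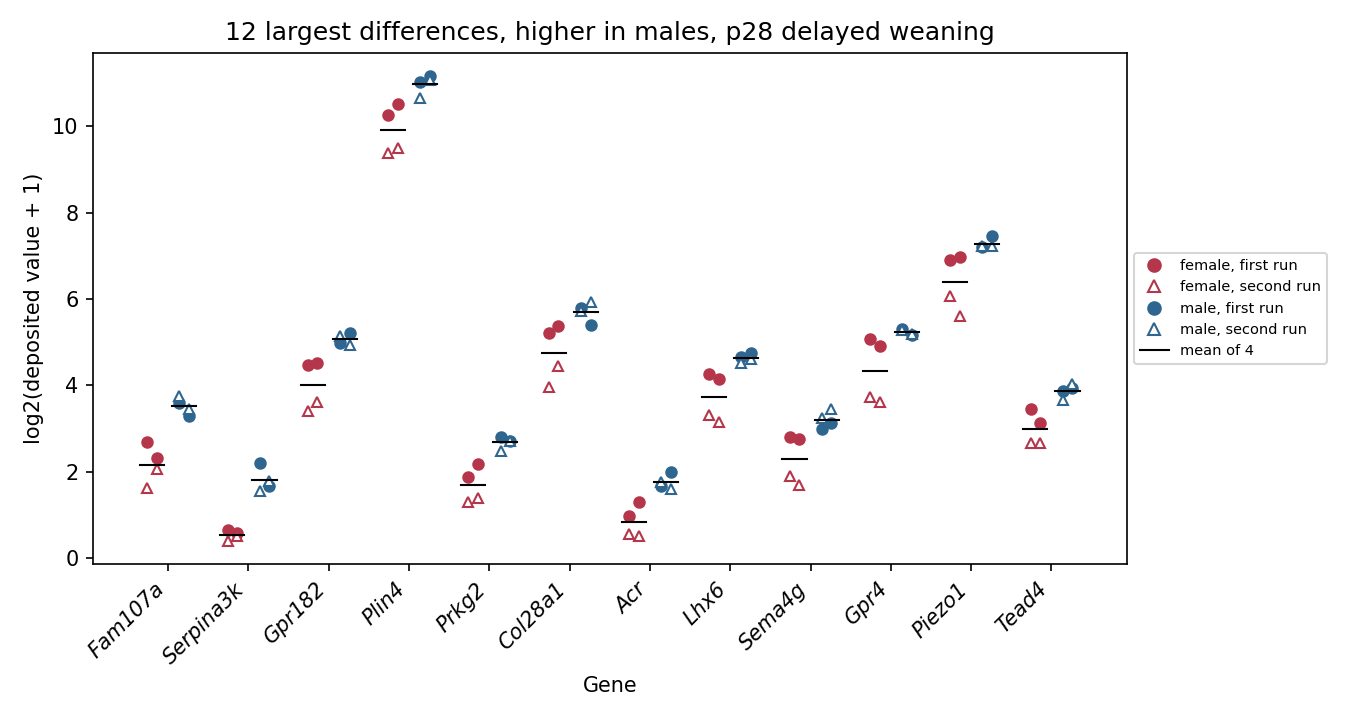
Log2(deposited value + 1) of the 12 genes with the largest male excess, 1 point per animal, with females in red and males in blue, circles for the first number run, open triangles for the second and a bar for the mean of 4 animals. For each gene all males lie above all females, which the choice of genes nearly fixes, and the second-run females lie below the first-run females.

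Muscle RNA varied more than any other list. The median of 25 skeletal muscle markers was -3.08, and 0 were called by limma. The summed value ranged from 76.7 to 3297 in the females and from 527.7 to 10168 in the males, so the groups overlapped. Atp2a1, the calcium pump of fast muscle, was at 21.8, 5.49, 0.324 and 323 in the females and 200.1, 29.7, 839 and 595 in the males. Female 83 was thus above males 79 and 80. Lists of B and T cells (25 genes), macrophages (19), MHC class II (10), red cells (10), Schwann cells (15), steroid metabolism (18), immediate early genes (22) and proliferation (32) had 0 genes called in either direction by limma. Together with muscle and lipogenesis these lists held 197 genes, of which 39 had an unadjusted p under 0.05, edgeR called 1 and DESeq2 10. Without females 82 and 83, 3 of the 22 immediate early genes were called higher in females, with a median of 0.28 in place of 0.04. Of the 32 proliferation genes 28 lay higher in females by sign, with a median of 0.21, at 0.02 in the first run and 0.39 in the second. Without females 82 and 83 that median was -0.001. Mki67, a proliferation marker, went the other way at -0.09 ± 0.14 (SE, adjusted p = 0.764). Progenitor genes had 1 of 23 called higher in females (Cd9), matrix genes 2 of 36 (Lum and Kera), clock genes 1 of 18 (Bhlhe41) and major urinary protein genes 1 of 12 (Mup3, in a family whose members share reads). The calls of Cd9 (adjusted p 0.135 by limma), Lum, Bhlhe41 (0.084) and Mup3 (0.604) ended without females 82 and 83. Lymphatic markers had 1 of 12 called higher in males, Gpr182 again. The part of these other cell types in the differences was not tested beyond the fits with list scores as covariates.

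The same sex difference was measured in animals weaned at day 21, which share no library with the DW animals. By animal number, SW females 73, 74 and 75 fell in the first run and 81 in the second. SW male 78 fell in the first run, 84 and 85 in the second, and 124 in neither. Sex and run were thus not balanced at SW, unlike at DW, and the part of this in the comparison was not tested. At SW 521 genes (3.37%) were called higher in females and 23 (0.149%) higher in males. Of the 281 DW genes higher in females 280 had the same sign at SW and 243 were called there. Of the 85 higher in males 82 had the same sign at SW, and 7 were called. Over all genes tested 61.17% had the same sign. Csn3 differed by 4.95 (adjusted p = 4.48e-05) at SW and Plin4 by -0.74 (adjusted p = 0.0496). Serpina3k gave -1.02 (adjusted p = 0.00147), Fam107a -1.05 (adjusted p = 0.0277) and Pck1 -0.84 (adjusted p = 0.0299), while Piezo1 gave -0.08 (adjusted p = 1) and Col28a1 0.11 (adjusted p = 1).

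At p21, the age at which the SW animals were separated, 51 genes (0.33%) were called higher in females and 0 (0%) higher in males by limma. For the latter 406 genes had an unadjusted p under 0.05, edgeR called 0 and DESeq2 10. Of the 281 genes 253 had the same sign there and 49 were called, with a median of 0.35. Of the 85 genes 11 had the same sign, with a median of 0.15 in favour of females, and 0 were called. The share over all genes tested was 42.09%. Csn3 differed by 4.44 (adjusted p = 0.00537) already at p21, Krt18 by 2.85 (adjusted p = 0.0169) and Ltf by 2.65 (adjusted p = 0.00213). Prlr gave 0.78 (adjusted p = 0.408) and Gata3 0.53 (adjusted p = 0.575). Plin4 gave 0.42 (adjusted p = 0.59), Lpin1 0.35 (adjusted p = 0.508) and Serpina3k -0.27 (adjusted p = 0.723).

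**Figure D5:**
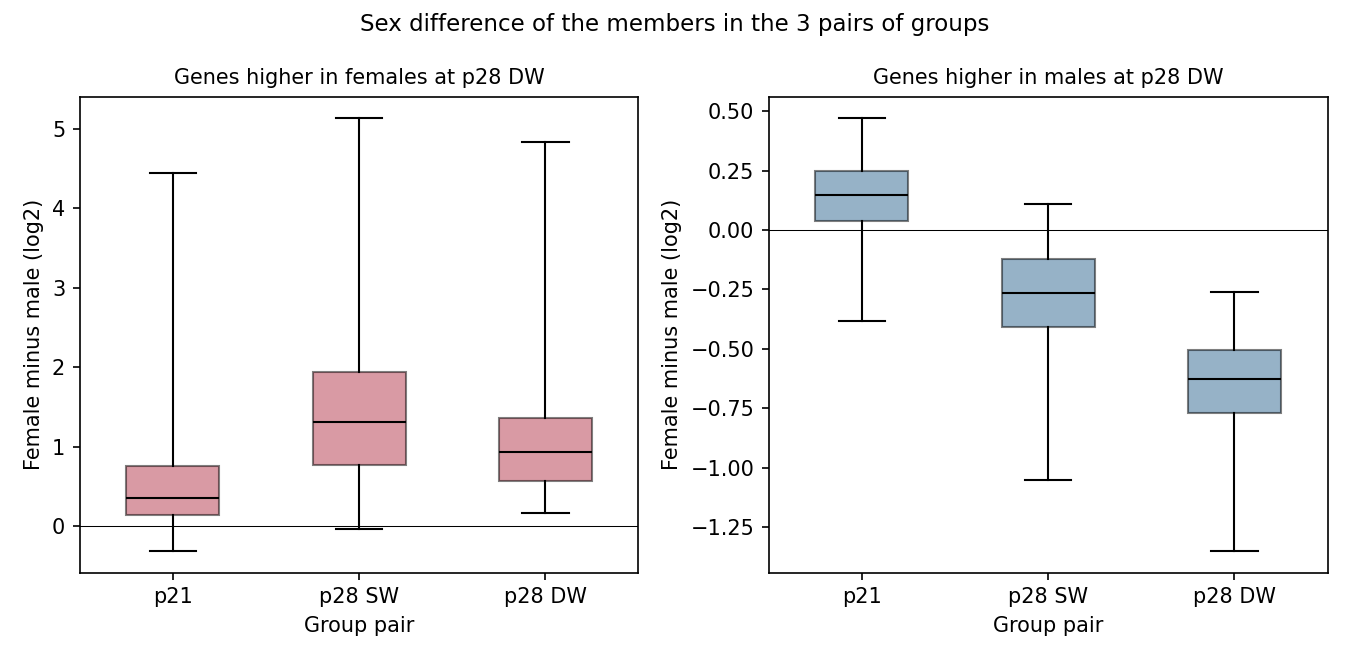
Female minus male difference (log2 of value + 1) of the 281 genes higher in females (left) and the 85 genes higher in males (right) at p21, p28 SW and p28 DW, with boxes for quartiles, a line for the median and whiskers to the extremes. The left medians are 0.35, 1.31 and 0.93 and the right ones 0.15, -0.27 and -0.63; the genes were chosen on the p28 DW values.

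Whether the sex difference at DW differed from that at SW was tested with an interaction term, across the unlike run mixes given above. It passed for 3 genes (0.0194%), Pak6, Proc and Hc, and all 3 had a smaller female excess at DW. Pak6, a kinase of the PAK family, was at 0.77, 0.666, 0.783 and 0.633 in the females and 0.0705, 0.09, 0.0472 and 0.186 in the males at DW and at 1.89, 1.51, 1.77 and 1.92 in the females and 0.0574, 0.168, 0.125 and 0.119 in the males at SW. The change was -0.67 ± 0.10 (SE, adjusted p = 0.015). Hc, the complement C5 gene, was at 1.76, 2.14, 1.1 and 1.79 in the females and 0.825, 0.503, 0.623 and 0.451 in the males at DW and at 6.85, 4.35, 4.95 and 4.37 in the females and 0.421, 0.812, 0.394 and 0.658 in the males at SW, a change of -1.21 ± 0.21 (SE, adjusted p = 0.041). Proc, the protein C gene of the clotting system, changed by -0.63 ± 0.10 (SE, adjusted p = 0.0237). Rspo4, a Wnt agonist, and Kera, the keratocan gene, came next with -1.08 ± 0.20 (SE, adjusted p = 0.072) and -1.04 ± 0.19 (SE, adjusted p = 0.072) and were not called. On the same data edgeR called 0 genes and DESeq2 1, which was none of these 3. Without females 82 and 83 the interaction passed for 0 genes by limma, with 311 at an unadjusted p under 0.05.

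The sex difference at DW was also set against that at p21, the age of separation at SW. The labels mark the p21 libraries SW. The interaction passed for 11 genes (0.0712%). Capn8 (chromosome 1), a calpain protease of secretory epithelium, was at 0.376, 0.592, 0.251 and 0.88 in the females and 0, 0, 0 and 0.149 in the males at p21 and at 3.8, 3.51, 2.46 and 3.32 in the females and 0.0141, 0, 0.113 and 0.115 in the males at DW. Its female excess grew by 1.46 ± 0.17 (SE, adjusted p = 0.000304). Tspan1, a tetraspanin of epithelia, was at 3.26, 2.57, 3.55 and 3.47 in the females and 0, 0, 0.179 and 0 in the males at DW and grew by 1.26 ± 0.22 (SE, adjusted p = 0.0378). Lpin1, Gramd1b and Gpat4 moved the other way: Lpin1 by -1.13 ± 0.20 (SE, adjusted p = 0.0378), Gramd1b by -1.20 ± 0.20 (SE, adjusted p = 0.0378) and Gpat4 by -0.85 ± 0.15 (SE, adjusted p = 0.0378). Gramd1b (chromosome 9), a sterol carrier between membranes, was at 116, 88.9, 114 and 105 in the females and 77.8, 82.3, 60.8 and 88.1 in the males at p21 and at 90.1, 90.8, 62.3 and 77.5 in the females and 128, 126, 133 and 149 in the males at DW. By edgeR 0 genes and by DESeq2 303 passed. Without females 82 and 83, 13 genes passed, of which 4 were among the 11.

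In the authors' deposited table, which comes from the same libraries, all 281 and all 85 genes had the sign found here in the log2 fold change of females over males at p28 DW, as did 15179 of the 15459 genes tested.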

How the data were processed

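Poly(A) RNA of inguinal white adipose tissue was sequenced from 24 mice. Per the labels' protocols, RNA was extracted with a lipid tissue kit, and KAPA mRNA HyperPrep libraries were run on a NovaSeqXPlus. The submitters' processing notes name fastp, HISAT2, featureCounts, DESeq2 1.38.3 and mm10, without roles. The deposited gene positions did not match GRCm38, so chromosomes alone are given for genes. The authors deposited 1 signal per gene and library, which is a scaled read number: every value (100%) was a whole multiple of the library's smallest within 0.01, and dividing by it gave reads. Of 16208 rows, 90 repeated ones were dropped. The strand setting is not given in the sources used here. The deposited log2 fold change of females over males at p28 DW was used for its sign only, and the deposited p-value column was not used for calls, since its values look unadjusted (34.48% over 0.5 and all distinct).

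Genes were kept by filterByExpr on recovered reads (minimum count 10), 16005 in all and 15459 outside X and Y of 15565 listed there. Values entered limma 3.58.1 (R 4.3.3) as log2(value + 1), with 6 group coefficients over 24 animals, 18 residual degrees of freedom and a variance trend. Genes were called at a Benjamini-Hochberg adjusted p under 0.05 over all 16005. No animal number recurs in another group, and no samples were paired. Alternatives used edgeR 4.0.16 and DESeq2 1.42.0 on recovered reads, other filters, scalings and covariates, and left-out animals. The members, lists and tests were chosen with earlier results of these data known. Named were the 12 largest differences per direction among genes called, seen in both runs and averaging at least 1 in log2 value, genes of the lists, and the 5 smallest p of each interaction; others are said to be chosen after their values were seen. Some genes of the lists are not reported here.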

Additional observations from a re-analysis of the deposited data

Results flagged for a closer look

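In 232 groups of 4 examined, 116 of females and 116 of males, a single animal lay far from the other 3 in 23 (9.91%). For independent, normally spread values chance gives about 1 in 20, but these groups share the same animals. All 23 were groups of males, 19.8% of those. The females fell into pairs by run, with median absolute log2 differences of 0.11 and 0.15 within pairs and 0.30 to 0.38 between. A single far animal can hardly arise from such a split, so the count does not compare the sexes. Male 86 was the high one for epithelial genes, with deposited values of 2.935 for Csn3, 0.9627 for Tmprss2, 1.595 for Krt18, 1.869 for Krt8, 1.095 for Foxa1, 0.4625 for Fgg, 0.151 for Fgb, 0.1793 for Tspan1, 0.03775 for Btn1a1 and 1.019 for Krt7. Its mean log2 over the milk protein genes was 3.188, against 2.806 to 2.836 in the other males. Male 87 was high for the basal keratins, at 2.518 for Krt5 and 0.3092 for Krt14, with a mean log2 of 3.407 over the basal list against 2.987 to 3.038. It was also high for Rspo4 (0.4948) and Mki67 (127.9) and low for Rps27a (107.5). Male 80 was high for Piezo1 (175.2) and Fkbp5 (96.45) and low for Bhlhe41 (5.685) and Muc1 (1.853). Male 79 was low for Acsl1 (2008) and Pck1 (1329).

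The sex difference differed between DW and SW, by a test of the difference itself, for Pak6 (-0.6689), Proc (-0.6272) and Hc (-1.21). Between DW and p21 it differed for Capn8 (1.46), Gramd1b (-1.205), Tspan1 (1.256), Gpat4 (-0.8483), Lpin1 (-1.13), Cyp3a57 (1.278), Itih2 (1.591), Plekhh1 (0.9842), Arhgef37 (-1.289), Ccl7 (1.13) and Capsl (0.6514), all as log2 differences.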

How the results depend on the processing

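In the fits with neither 82 nor 83 and with neither 76 nor 77, 186 of the 281 (66.2%) and 1 of the 85 (1.18%) were called in both. Counts below are in the order called higher in females, called higher in males, and the same seen in both runs; only counts more than 1.5 times apart from 292, 87, 281 and 85 are given. The cause of these changes was not tested, and in some settings fewer samples or genes entered. With DESeq2 they were 621, 191, 456 and 179. The male counts were 48 and 46 with edgeR, 55 and 53 with edgeR on DESeq2 size factors, 19 and 19 with only the 8 animals fitted, 56 and 56 with number run as a covariate, and 34 and 34 with muscle and B and T cell scores as covariates. With luminal and basal scores as covariates, which themselves differ between the sexes, they were 1, 0, 1 and 0. The share of calls higher in females was 77.04% in the reported fit, 86.89% with edgeR and 85.01% with edgeR on DESeq2 size factors. Settings chosen after seeing the data gave male counts of 8 and 8 with neither female 82 nor 83, 1 and 1 in the first run, and 159 and 153, or 15 and 15 without 82 and 83, after GC and length correction. They gave 2564, 2785, 2552 and 2764 with neither 76 nor 77, and 1718, 1939, 1718 and 1937 in the second run. Leaving out 1 DW animal gave 223 to 919, 11 to 841, 221 to 646 and 11 to 570.

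The sex by weaning count of 3 became 0 with edgeR under either scaling, with a value of at least 1 required in 4 animals, with a pseudocount of 0.1, with no variance trend, with the luminal and basal covariates, without 82 and 83, in the first run and after either GC correction. It became 1 with DESeq2 and with only the groups compared, 3425 without 76 and 77, 1992 in the second run, and 0 to 8 on leaving out 1 animal. The sex by age count of 11 became 0 with edgeR under either scaling and with a pseudocount of 0.1, 303 with DESeq2, 7 with only the groups compared, 2 without p21 male 53 and SW male 84, 1 with either set of covariates, 4360 without 76 and 77, 4 in the first run, 2989 in the second, 36 and 25 after GC correction, and 1 to 52 on leaving out 1 animal.

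With the luminal and basal scores as covariates the sign turned for Csn3 (-1.51), Krt18 (-0.76), Krt19 (-0.50), Krt8 (-1.18), Foxa1 (-0.76), Epcam (-0.33), Cdh1 (-0.31), Gata3 (-0.26), Stc2 (-0.0891), Lcn2 (-0.35) and Bhlhe41 (-0.87), and for Nrip1 of the male set (0.31), all with an adjusted p of at least 0.821. Of these, Krt18, Krt19, Krt8, Foxa1, Epcam, Cdh1 and Lcn2 are on the luminal list and so are part of their own covariate. No paired analysis was possible because no animal number occurs in more than 1 group. Each sex had 4 animals, and some genes had only a few reads in males. The parts of animal number and depth in precision were not tested.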
